A study of Mus musculus with 4 samples.

Results

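Otx2, Pou3f1, Zic1, Zic2, Zic5, Gbx2, Tcf15 and Sox1 encode transcription factors of the formative epiblast and the early neural plate. They were followed on expression arrays of total RNA from mouse embryonic stem (ES) cells, 2 arrays of SOCS3 null cells and 2 of wildtype cells. The 8 genes, of 18193 with a probe set of their own, were chosen by name, and every probe set whose only gene symbol was theirs was taken. This gave 13 of the 45101 probe sets on the array. The labels call the groups SOCS3 null and wildtype, and name no allele, strain, clone, culture condition or passage. SOCS3 is an inhibitor of signalling from cytokine receptors through JAK kinases and STAT3, and the keywords of all 4 arrays name leukemia inhibitory factor (LIF), SHP2, ERK1/2 and endoderm. Whether the 2 arrays of a genotype stem from independent cultures is not stated, and the p-values then reflect array-to-array spread that may be technical.

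Mouse ES cells held by LIF resemble the naive epiblast of the blastocyst. When they leave that state they pass through a formative stage, in which OTX2 and POU3F1 are induced and help POU5F1 (OCT4) to new enhancers. ZIC factors and SOX1 follow as the ectoderm takes on neural identity. GBX2 has a place in both settings, as a transcript that LIF and STAT3 induce in mouse ES cells and as the factor that opposes OTX2 at the boundary of midbrain and hindbrain.

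The 4 arrays were nearly equal in scale, with medians of log2(intensity + 16) that differed by at most 0.0117. Across the probe sets tested the correlation of log2 values was 0.988 between the SOCS3 null arrays, 0.995 between the wildtype arrays, and 0.948 to 0.957 across genotypes, where genes are not independent replicates. The brightest probe set of Socs3 read 19.3 and 12.9 on the SOCS3 null arrays, against 3024 and 1884 on the wildtype arrays. The ES cell factor Pou5f1 read 11567 and 10524 on the SOCS3 null arrays, against 10524 and 11675 on the wildtype arrays, so the marker of the labelled cell type was bright in both groups. Intensities are linear values as deposited. Changes are differences of mean log2(intensity + 16), SOCS3 null minus wildtype, given with its standard error (SE) or its 95% interval from limma. The test was two-sided, and calls required an adjusted p (Benjamini-Hochberg, over the 27022 probe sets tested) under 0.05.

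Transcripts of 6 of the 8 genes were lower in SOCS3 null cells. Of the 13 probe sets, 9 had a mean log2 value above the filter on dim probe sets and were tested. Of these 8 fell, 0 rose (0 also at an unadjusted limma p under 0.05) and 1, a probe set of Pou3f1, was not called. Of the 8, that of Zic2 passed the filter only through its wildtype arrays. Among all probe sets tested 7.3% were called lower and 8.55% higher. The median change of the 9 was -1.24, against -0.02 over all probe sets tested. The genes with a called probe set were Otx2, Pou3f1, Zic2, Zic5, Gbx2 and Tcf15. The 4 probe sets of Zic1 and Sox1 were too dim for the filter and had no test, so the count belongs to the members bright enough to test. On all 9 tested probe sets both SOCS3 null arrays lay below both wildtype arrays, as they did on 34.8% of all probe sets tested.

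**Figure D1:**
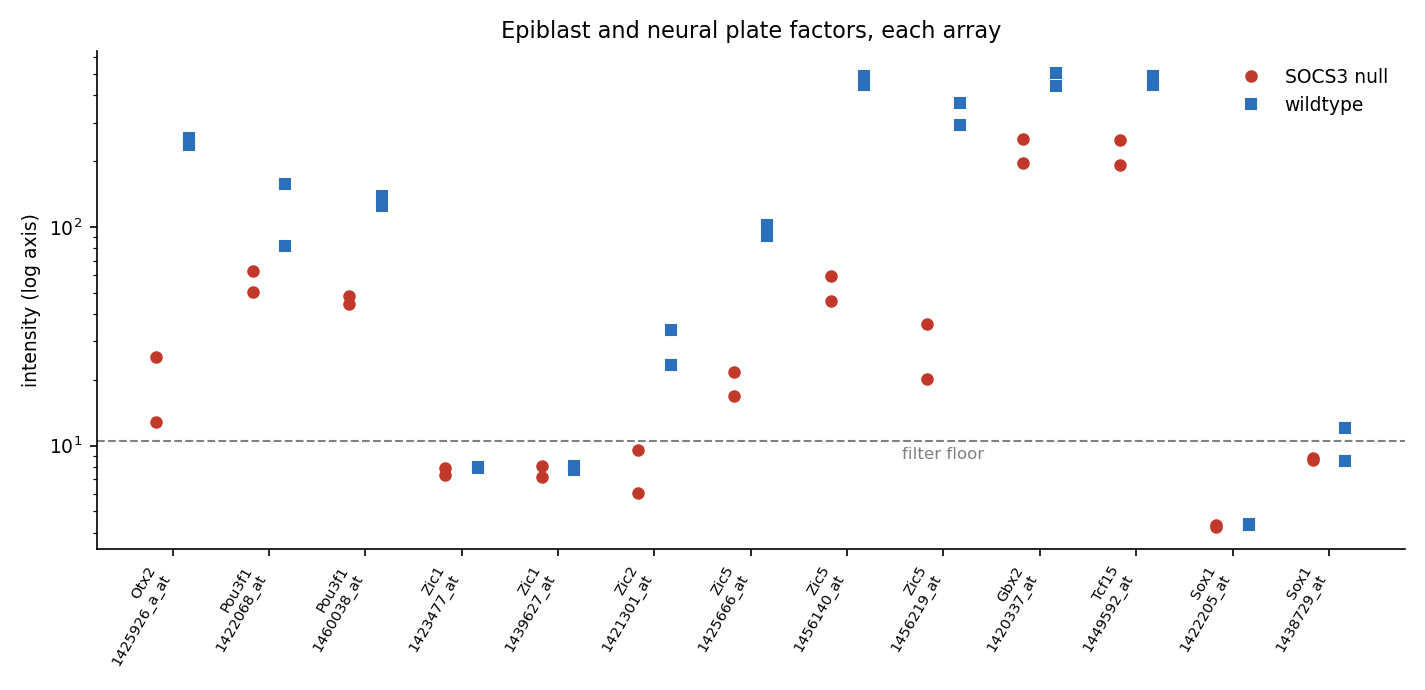
Intensity (log axis) of the 13 probe sets on each of the 4 arrays, SOCS3 null as circles left of wildtype as squares, with 1 symbol per array. The dashed line is the intensity of 10.4 that corresponds to the filter on mean log2 values; the 4 probe sets of Zic1 and Sox1 fail it, and on the other 9 both circles lie below both squares.

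Otx2, a homeobox factor of the formative epiblast and later of forebrain and midbrain, fell furthest together with Zic5. It read 12.9 and 25.4 on the SOCS3 null arrays, against 255 and 237 on the wildtype arrays. Both SOCS3 null values were near the array median, and the groups were far from overlapping. The mean intensity was 19.2 ± 8.90 in SOCS3 null cells and 246 ± 12.9 in wildtype cells (SD, n = 2 each), so the SOCS3 null mean was 7.79% of the wildtype mean. The log2 change was -2.92 (SE 0.21, limma adjusted p = 0.0115). Ordered from the most negative change, Otx2 ranked 32 of 27022 probe sets, and 20 of the 12732 genes when each gene stood with its brightest probe set. Because the SOCS3 null values are dim, the size depends on the pseudocount, with -3.69 at a pseudocount of 1 and -1.90 at 64.

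The RefSeq promoter table (build GRCm38.p6, 250 bases before and 50 after a start) matched 5 of the 8 members, Otx2, Zic1, Zic5, Gbx2 and Sox1, and holds 4 starts of Otx2, all on the minus strand of chromosome 14. One of them, chr14:48665060-48665359, is shown because it alone among the 8 member windows in the table contains the OTX homeodomain motif TAATCC or the STAT motif TTCNNNGAA. Capitals mark the match to each motif, and the OTX motif is read here on the opposite strand.
Otx2: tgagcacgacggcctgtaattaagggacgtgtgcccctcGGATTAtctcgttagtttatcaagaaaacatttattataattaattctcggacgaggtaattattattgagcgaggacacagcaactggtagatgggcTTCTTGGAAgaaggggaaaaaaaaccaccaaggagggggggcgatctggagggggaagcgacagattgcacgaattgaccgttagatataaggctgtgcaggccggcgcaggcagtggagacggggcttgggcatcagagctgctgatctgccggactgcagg
Both strands were searched. Of the 32544 windows of 300 bases in the table, 7.06% contain TAATCC and 8.33% contain TTCNNNGAA. The POU octamer ATGCAAAT, which 1.75% of windows contain, was found among the member windows in that of Sox1. Which of the 4 starts the measured transcripts used is not known here.

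Pou3f1, the POU factor also called OCT6, had 2 probe sets of similar brightness. On the steadier of them it read 44.5 and 48.2 on the SOCS3 null arrays, against 124 and 139 on the wildtype arrays. The change was -1.24 (SE 0.09, limma adjusted p = 0.0118), and the SOCS3 null mean was 35.2% of the wildtype mean. On the other probe set it read 62.9 and 50.7 on the SOCS3 null arrays, against 81.9 and 157 on the wildtype arrays. The wildtype arrays were far apart there, and the change of -0.84 (SE 0.32) was not called (limma adjusted p = 0.173). Its 95% interval of -1.76 to 0.08 contains the change of the other probe set. Without wildtype replicate 2 this second change was -0.43, and without wildtype replicate 1 it was -1.25.

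The ZIC genes encode zinc finger factors that act in the neural plate, the neural tube and the neural crest. Zic5 was measured by 3 probe sets, and all of them fell. Its brightest probe set read 59.7 and 46.0 on the SOCS3 null arrays, against 446 and 490 on the wildtype arrays, a change of -2.82 (SE 0.13, limma adjusted p = 0.00861). The next read 36.0 and 20.2 on the SOCS3 null arrays, against 292 and 369 on the wildtype arrays, a change of -2.99 (SE 0.24, adjusted p = 0.0127). The dimmest read 21.8 and 16.9 on the SOCS3 null arrays, against 90.9 and 103 on the wildtype arrays, a change of -1.67 (SE 0.11, adjusted p = 0.0111). Without the filter the second of these had an adjusted p of 0.0511. The SOCS3 null means were 11.3%, 8.51% and 20.0% of the wildtype means. The 95% interval of the dimmest probe set, -2.00 to -1.35, lay apart from those of both brighter ones, whose upper ends were -2.44 and -2.31.

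Zic2, which is needed for closure of the neural tube, read 6.06 and 9.58 on the SOCS3 null arrays, against 33.9 and 23.3 on the wildtype arrays. The groups did not overlap, with a change of -0.90 (SE 0.16, limma adjusted p = 0.0453). Its adjusted p was the highest of the 8 calls. The SOCS3 null mean of 4.57 on the log2 scale lay below the filter's floor of 4.72, so Zic2 was tested only through its wildtype arrays. The change was -0.36 at a pseudocount of 64, where it was not called (limma adjusted p = 0.0759), and -1.75 at 1. When no filter was applied the adjusted p was 0.133. Zic1, an early neural plate gene, was dim everywhere. One probe set read 7.35 and 7.90 on the SOCS3 null arrays, against 7.95 and 7.90 on the wildtype arrays. The other read 8.06 and 7.16 on the SOCS3 null arrays, against 8.06 and 7.71 on the wildtype arrays. These values overlapped and lay below the array medians.

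In the RefSeq gene order Zic5 and Zic2 are next to each other among the protein-coding genes of chromosome 14, as Zic1 and Zic4 are on chromosome 9. The genes that flank the Zic5 and Zic2 pair were not called. Clybl read 130 and 220 on the SOCS3 null arrays, against 307 and 194 on the wildtype arrays (change -0.49, SE 0.35), and Pcca read 102 and 139, against 163 and 118 (change -0.20, SE 0.22). Over all members, 10 nearest protein-coding neighbours that are no members themselves, Clybl and Pcca included, were tested. Of these 0 were called lower by limma, 9 were not called and 1 rose. Over the brightest probe set of every gene tested, 8.07% were called lower and 11.2% higher. With 10 neighbours these counts cannot be told apart from those shares. At an unadjusted p under 0.05 the count of lower neighbours was 1, Utp11 beside Pou3f1 (change -0.41). The neighbour that rose was Tbc1d2b beside Zic1, which read 224 and 209 on the SOCS3 null arrays, against 63.5 and 55.3 on the wildtype arrays. The neighbours' median change was 0.01. Utp11 and Tbc1d2b were named after their values were seen. The Zic5 window below, on the minus strand at chr14:122465609-122465908 of GRCm38.p6, is printed because Zic5 and Otx2 had the largest changes. It contains none of TAATCC, TTCNNNGAA and ATGCAAAT, so it has no capitals.
Zic5: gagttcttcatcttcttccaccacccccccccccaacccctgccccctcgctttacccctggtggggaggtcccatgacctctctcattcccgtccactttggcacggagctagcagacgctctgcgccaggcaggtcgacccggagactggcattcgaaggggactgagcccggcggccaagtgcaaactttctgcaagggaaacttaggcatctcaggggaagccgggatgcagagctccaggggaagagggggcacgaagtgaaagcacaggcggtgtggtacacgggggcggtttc

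Gbx2, the homeobox factor of the anterior hindbrain and a target of LIF and STAT3 in ES cells, read 195 and 252 on the SOCS3 null arrays, against 504 and 440 on the wildtype arrays. Its change was -1.03 (SE 0.16, 95% interval -1.49 to -0.58, limma adjusted p = 0.0341), and the SOCS3 null mean was 47.4% of the wildtype mean. Tcf15, a basic helix-loop-helix factor of the paraxial mesoderm that in ES cells marks a state primed to differentiate, read 193 and 250 on the SOCS3 null arrays, against 488 and 446 on the wildtype arrays. Its change was also -1.03 (SE 0.15, 95% interval -1.47 to -0.60, adjusted p = 0.0315), and its SOCS3 null mean was also 47.4% of the wildtype mean. For both genes the groups did not overlap, and replicate 2 of SOCS3 null and replicate 1 of wildtype were the higher arrays. Neither was called when no filter was applied, with adjusted p of 0.107 for Gbx2 and 0.0987 for Tcf15.

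The Gbx2 window, on the minus strand at chr1:89931127-89931426 of GRCm38.p6, is shown as that of the member known as a STAT3 target. It contains 0 matches to TTCNNNGAA, TAATCC or ATGCAAAT, which says only that these letters are not in these 300 bases, and so has no capitals.
Gbx2: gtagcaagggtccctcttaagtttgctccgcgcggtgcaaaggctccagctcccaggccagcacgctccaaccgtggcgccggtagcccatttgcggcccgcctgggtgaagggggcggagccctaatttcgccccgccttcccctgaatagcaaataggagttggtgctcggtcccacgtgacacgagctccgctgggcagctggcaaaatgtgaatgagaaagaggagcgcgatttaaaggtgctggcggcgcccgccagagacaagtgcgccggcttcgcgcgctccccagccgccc
It holds 27 CG dinucleotides, against 37 in the Sox1 window, 31 in that of Zic1, 15 in that of Zic5 and 6 to 16 in those of Otx2. Over all windows in the table the median is 7 and the 90th percentile 31.

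Sox1, a SOX factor and an early marker of neural tissue, was dim on all arrays. One probe set read 4.26 and 4.34 on the SOCS3 null arrays, against 4.36 and 4.34 on the wildtype arrays, and the other read 8.76 and 8.62, against 12.0 and 8.49. The groups overlapped on both, and neither was tested. Over Zic1 and Sox1 the changes ran from -0.08 to 0.00 without a test, and a dim value is not read as absence because no detection calls were used here.

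**Figure D2:**
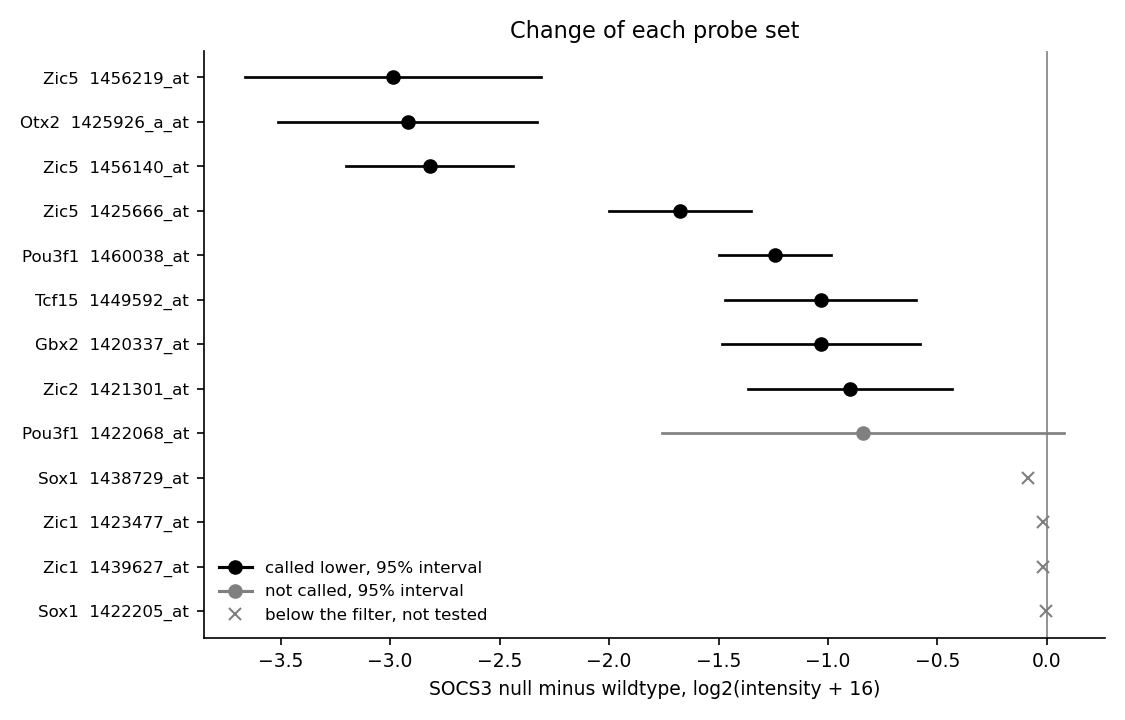
Change of each probe set, SOCS3 null minus wildtype on log2(intensity + 16), ordered from the most negative. Points with bars are tested probe sets with 95% intervals, black where called lower and grey where not called, and crosses are probe sets below the filter. The changes of the brighter Zic5 probe sets and of Otx2 lie between -2.99 and -2.82, while Gbx2, Tcf15, Zic2 and Pou3f1 lie between -1.24 and -0.84.

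The falls came in different sizes. The 95% intervals of Otx2 (-3.51 to -2.33) and of the 2 brighter Zic5 probe sets did not overlap those of Gbx2, Tcf15, Zic2 and the called Pou3f1 probe set (-1.50 to -0.98). Within each of these groups the intervals overlapped, and the order inside a group is not resolved. The interval of the dimmest Zic5 probe set (-2.00 to -1.35) overlapped those of Gbx2, Tcf15, Zic2 and the called Pou3f1 probe set. Its change of -1.67 lay outside all of theirs, and its SOCS3 null mean was 20.0% of the wildtype mean. This change too depends on the pseudocount, with -2.27 at 1 and -0.95 at 64, so the dimmest Zic5 probe set is placed in neither group. The place of Zic2 beside Gbx2 and Tcf15 depends on the pseudocount, because its intensities are dim. The change of Zic2 was -1.75 at a pseudocount of 1 and -0.36 at 64. For both Gbx2 and Tcf15 it was -1.08 at 1 and -0.90 at 64. The SOCS3 null mean of Zic2 was 27.4% of its wildtype mean, against 47.4% for Gbx2 and for Tcf15. Zic2 is therefore not read as a fall of the same size as theirs. The differences between genes were not themselves tested. They are differences of change, and levels of different probe sets are not compared here.

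**Figure D3:**
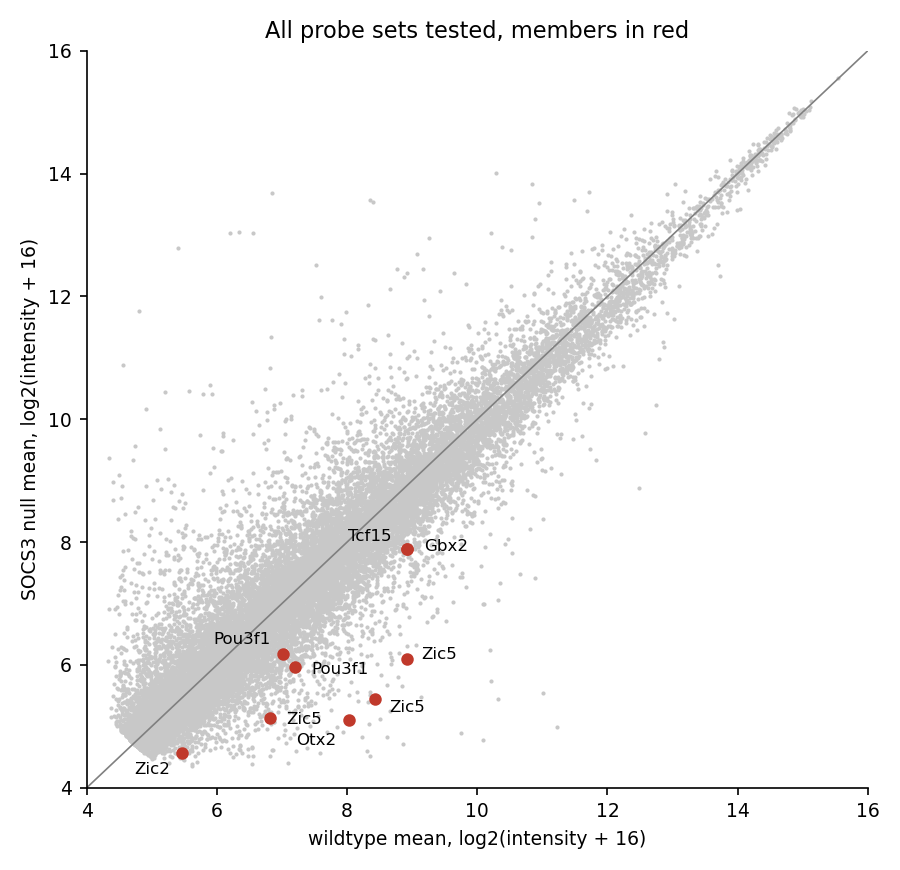
Mean log2(intensity + 16) of the 27022 probe sets tested in SOCS3 null cells (vertical axis) against wildtype cells (horizontal axis), with the 9 tested member probe sets in red and the line of equal values in grey. All 9 red points lie below the line, and those of Otx2 and the brighter Zic5 probe sets, at changes of -2.82 to -2.99, lie at the lower edge of the cloud.

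The genes most like Otx2 and Gbx2 over the 4 arrays were found by the root mean square distance between log2 values, each centred on its own mean, among 22476 probe sets. Nearest to Otx2 were Rimklb (distance 0.05, change -2.94), Actn3, a muscle actinin (0.07, -2.92), Ldhb, a lactate dehydrogenase subunit (0.08, -3.01), and the forkhead factor Foxp1 (0.12, -2.78). Nearest to Gbx2 were Mga, a partner of MAX (distance 0.02), Tcf15 itself (0.02), Zfp518b (0.03) and Zfp850 (0.04, change -1.04). Tcf15 was thus second in the order for Gbx2, and Zic2 came at place 67 with a distance of 0.10. The brightest Zic5 probe set was at place 28 for Otx2, with a distance of 0.30. With 4 arrays in 2 groups such a distance mostly reflects the size of the change, and it says nothing of shared control.

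Related genes were taken from lists chosen with earlier results of these data known, each gene standing with its brightest probe set. By that measure the 6 tested members had a median change of -1.03 and 5 were called lower, since the probe set of Pou3f1 that was not called had the higher mean. Over all 12732 genes 8.07% were called lower and 11.2% higher, with a median of 0.00. Of 16 other genes of the formative and primed epiblast that were tested, 8 fell, 1 rose and 7 were not called, with a median of -0.79. Of the 8, Lef1 and Sfrp2 passed the filter only through their wildtype arrays. Lef1, an effector of Wnt signalling, read 8.20 and 7.19 on the SOCS3 null arrays, against 200 and 153 on the wildtype arrays (change -3.01, limma adjusted p = 0.00874). Pim2, a survival kinase, changed by -2.69 (adjusted p = 0.013), and Sfrp2, a secreted Wnt modulator, by -1.64 (adjusted p = 0.009). Fgf5, the classic marker of the postimplantation epiblast, and Fgf8 lay below the filter in both groups. Etv4, an ETS factor named after its value was seen, was the gene that rose (change 0.70, adjusted p = 0.0171).

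Most other early neural genes were not called, as held for most genes tested. Of 18 tested genes of the neural plate list without the members, 1 fell, 1 rose and 16 were not called, with a median of 0.00. Over all genes tested 8.07% were called lower and 11.2% higher, and with 18 genes the counts cannot be told apart from those shares. Another 9 lay below the filter. Several of those tested were dim too. Wildtype means were 14.3 for Pax6, 15.3 for Hes5, 12.5 for Lhx5 and 10.8 for Zfp521, genes named after their values were seen. Log2(intensity + 16) leaves little room for a fall from such values, so a gene not called is not read as unchanged. Gli3, a mediator of hedgehog signalling, fell by 0.71 on the log2 scale (limma adjusted p = 0.0168) and Irx3 rose by 0.43 (adjusted p = 0.0382). Irx3 was called in 6 of 9 alternatives with all 4 arrays (adjusted p 0.0174 to 0.104), and not at a pseudocount of 64 (adjusted p = 0.0713). Sox2 read 2825 and 3940 on the SOCS3 null arrays, against 6372 and 7099 on the wildtype arrays (change -1.01, adjusted p = 0.0515). Hesx1, a homeobox repressor of the anterior neural plate named after its values were seen, read 426 and 149 on the SOCS3 null arrays, against 26.4 and 30.9 on the wildtype arrays (change 2.60, adjusted p = 0.0559). Neither passed the test, though Sox2 passed in 4 of 10 alternatives with all 4 arrays (adjusted p 0.0171 to 0.153). The values of Hesx1 lay in the opposite direction to Otx2. Olig2, also named after its values were seen, was high on SOCS3 null replicate 1 alone, with 64.6 and 8.36 on the SOCS3 null arrays, against 9.89 and 11.6 on the wildtype arrays.

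Family relatives of the members were mostly dim. Otx1, Crx, Zic4, Gbx1, Pou3f2, Pou3f3, Pou3f4, Scx and Sox3 lay below the filter, with intensities from 6.67 to 17.7 over the 4 arrays, and Sox2 was the 1 relative tested.

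**Figure D4:**
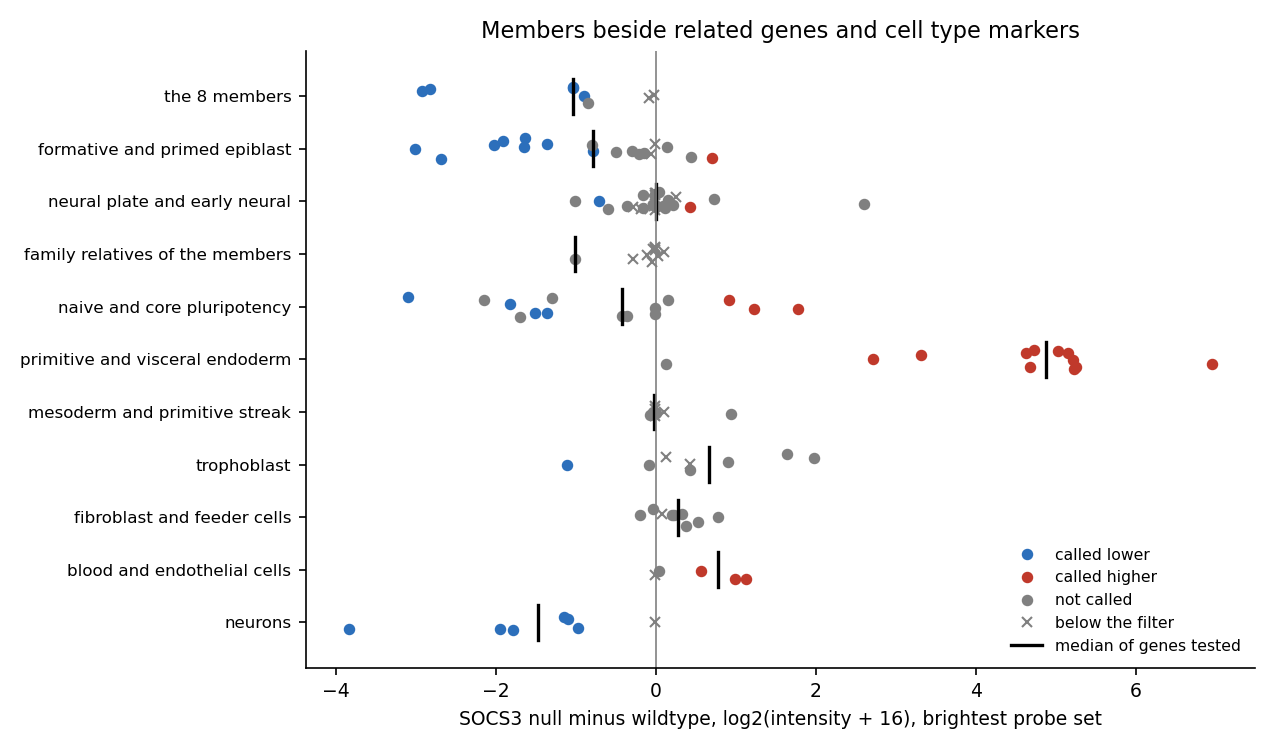
Change of each gene, SOCS3 null minus wildtype on log2(intensity + 16), on its brightest probe set, for the members, related gene lists and cell type marker lists. Blue points are called lower, red called higher, grey not called, crosses below the filter, and black bars are medians of the genes tested. The members' median is -1.03, that of the endoderm markers 4.87 and that of the neuronal markers -1.47.

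The naive and core pluripotency genes moved both ways. Of 15 tested 4 fell, 3 rose and 8 were not called, with a median of -0.42. Tbx3 rose by 1.78 (adjusted p = 0.00791), while Tcl1 and Prdm14 changed by -1.83 and -1.51 (adjusted p = 0.0108 and 0.00859). Pou5f1, the partner of OTX2 in the formative state, was at 99.5% of its wildtype mean and was not called (adjusted p = 0.974).

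Markers of other cell types moved beside the members. Of 12 markers of primitive and visceral endoderm 11 rose and 0 fell, and their summed intensity was 33906 to 34424 on the SOCS3 null arrays, against 769 to 803 on the wildtype arrays. Lama1, Col4a1 and Sox17 rose by 5.15, 5.22 and 5.02 (adjusted p = 0.00359 for Lama1 and 0.00412 for the others), while Hnf4a, named after its value was seen, was not called. Of the 11, Gata4, Sox17 and Foxa2 passed the filter only through their SOCS3 null arrays. In the embryo Otx2 is also a gene of the visceral endoderm, and here it was lower on the arrays where these markers were higher. Of 6 tested neuronal markers all 6 fell, Ina and Map2 having passed the filter only through their wildtype arrays. The list had a summed intensity of 1941 to 2095 on the SOCS3 null arrays, against 5051 to 5173 on the wildtype arrays, and Dcx was below the filter. Ina, Tubb3 and Neurod1 changed by -3.83, -1.79 and -1.95 (adjusted p = 0.00819, 0.00839 and 0.009). In these bulk samples fewer cells of a type and less RNA per cell cannot be told apart, and the part of either marker list in the members' falls was not tested.

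The remaining markers were mostly dim or not called. Of 4 tested mesoderm markers 0 were called (limma, 1 at an unadjusted p under 0.05), with a summed intensity of 147 to 153 on the SOCS3 null arrays, against 96.4 to 112 on the wildtype arrays. Eomes had a change of 0.94 (adjusted p = 0.0599), Gsc one of -0.07 and Wnt3 one of -0.04. Mixl1, Mesp1, Tbx6, Meox1 and Foxc2 were below the filter, Meox1 and Foxc2 being genes of the paraxial mesoderm as Tcf15 is. Of 6 tested trophoblast markers Tfap2c fell (change -1.11, adjusted p = 0.0254), and Plac1 (1.97, adjusted p = 0.0762) and Hand1 (0.90, adjusted p = 0.0936) were not called. The sums were 649 to 991 on the SOCS3 null arrays, against 1041 to 1288 on the wildtype arrays. Tfap2c made up most of the wildtype sums, with 468 and 506 on the SOCS3 null arrays, against 955 and 1199 on the wildtype arrays. Both SOCS3 null arrays lay above both wildtype arrays for Plac1, Hand1, Cdx2, Elf5, Gata3 and Krt7, and below them for Tfap2c and Tpbpa. Cdx2, Elf5, Gata3, Krt7 and Tpbpa were named after their values were seen, and Cdx2 and Elf5 lay below the filter. Of 8 tested fibroblast markers 0 were called (0 at an unadjusted p under 0.05), with sums of 1594 to 2585 on the SOCS3 null arrays, against 1327 to 2197 on the wildtype arrays, and the smallest p belonged to Thy1, Dcn and Twist1 (changes 0.37, 0.78 and 0.32). Of 4 tested blood and endothelial markers Cd68, Cdh5 and Tek rose by 1.13, 1.00 and 0.56 (adjusted p = 0.0342, 0.0121 and 0.0355), and Cdh5 passed the filter only through its SOCS3 null arrays. The sums were 487 to 577 on the SOCS3 null arrays, against 341 to 351 on the wildtype arrays.

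**Figure D5:**
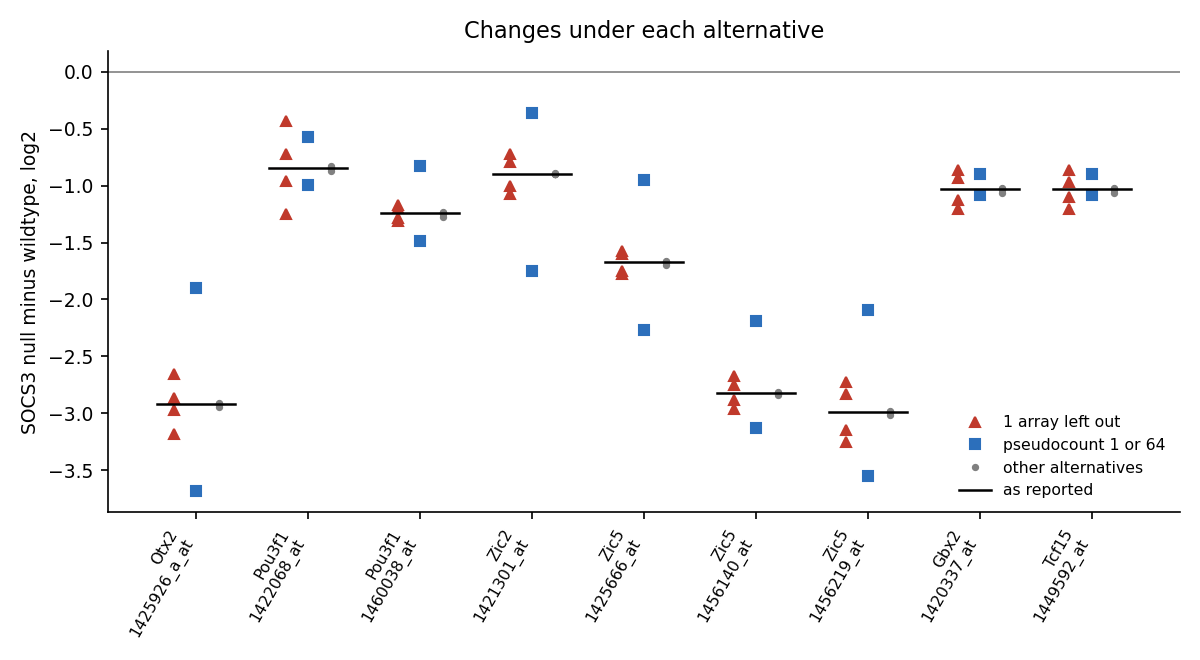
Change of each tested member probe set under every alternative: triangles leave out 1 array, squares use a pseudocount of 1 or 64, dots are the other alternatives and the black line is the value reported. All values lie below 0. With the pseudocount Otx2 ranges between -3.69 and -1.90 and Zic2 between -1.75 and -0.36, while Gbx2 and Tcf15 stay between -1.08 and -0.90.

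All 9 tested member probe sets kept a negative change under the alternatives in which they were tested. Otx2, the brightest Zic5 probe set, the dimmest Zic5 probe set and the steadier Pou3f1 probe set were called in every alternative that kept all 4 arrays and tested them. With any 1 array left out limma called 0 probe sets in all, so no member call stood at 3 arrays. There 7 or 8 of the 9 had an unadjusted p under 0.05.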

How the data were processed

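The deposited table gives 1 intensity per probe set and array on a linear scale. For the authors' summarisation and normalization, the method is not given in the sources used here. Near-equal distributions were taken as already normalized. Groups and replicate numbers came from the labels. After 64 control probe sets were left out, probe sets with a mean log2(intensity + 16) at or above the 40th percentile (4.72) were tested with limma 3.58.1 in R 4.3.3, with lmFit, eBayes and genotype as the only term. Symbols came from the platform annotation, in which 34945 probe sets have 1 symbol, 932 several and 9160 none. Named genes were all members and their family relatives, Socs3, the 3 genes of smallest p in each list, and the 4 nearest to Otx2 and to Gbx2. Others are marked as named after their values were seen, except Pou5f1, Clybl, Pcca and genes named for where they lay against the filter. Genes named for the filter were also picked after their values were seen. Members and lists were chosen with earlier results of these data known. The model was tested on simulated data. Alternatives changed the filter (none, or the 60th percentile), the pseudocount (1 or 64) or the scaling (quantile, or centring on medians), or used an eBayes trend, a replicate block or 3 of the 4 arrays, with 1 probe set per gene and a crossed pairing added after seeing the data. Figures used matplotlib 3.10.9. The number of arrays limits the precision.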

Additional observations from a re-analysis of the deposited data

How the results depend on the processing

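The 8 member probe sets called lower became 4, with 1733 called in all, without the filter, where Otx2, Pou3f1 and 2 probe sets of Zic5 were called. With 1 probe set per gene, an alternative chosen after seeing the data, 5 member probe sets were called lower, because fewer probe sets stand for the same genes. With any 1 array left out limma called 0 probe sets in all and 0 of the members', while 5715 to 8552 probe sets in all, and 7 to 8 of the 9 of the members, had an unadjusted p under 0.05; each such fit rests on 3 arrays, and the lone array of a genotype is assumed to vary like the other. The replicate numbers only name arrays, and the deviations of same-numbered arrays correlated at -0.12. With the numbers as a replicate block 1993 probe sets were called in all and 5 member probe sets were lower, those of Gbx2, Tcf15 and Zic2 not being called, nor Gli3, Irx3 and Tek among the list genes. With the crossed pairing, added after seeing the data, 3845 were called in all and 8 member probe sets. Irx3 and Tek were not called with it (limma adjusted p = 0.0721 and 0.0541). In the other alternatives 7 or 8 member probe sets were called lower, and 0 were called higher in any alternative (0 at an unadjusted p under 0.05). Of the list genes named, Pim2, Tfap2c, Cd68 and Tek also lost their calls without the filter. No detection calls were used, so dim intensities, above all those of Zic1, Zic2 and Sox1, limit what can be said of low levels.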

Other observations

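Among the probe sets on the array 8945, or 19.8%, had exactly the same deposited intensity on at least 2 of the 4 arrays, and on 5798 of them a SOCS3 null and a wildtype array shared the value. The share was 28.9% of the probe sets below the filter and 13.8% of those tested. Of the member probe sets 3 had such equal values, both of Zic1 and 1 of Sox1, and 0 of the 9 tested did. How equal values arose was not tested.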
